A study of Homo sapiens with 12 samples.

Results

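The untreated state of HEK293T, a human line derived from embryonic kidney and carrying the SV40 large T antigen, was described by setting ribosome footprints beside mRNA, transcript by transcript. The libraries were the 4 of the series' 12 whose titles give 0 min: RPF (ribosome-protected fragments) replicates 1 and 2 and mRNA replicates 1 and 2. All were labelled wild type. Their treatment label was GSK-A1, an inhibitor of the lipid kinase PI4KA, as in every library of the series, so that they are untreated only as far as the time of 0 min says so. RPF came from ribosome fractions (monosomes and polysomes) of a polysome profile after RNase I digestion and size selection on a gel, per the labels' protocols, and the mRNA libraries were labelled polyadenylated RNA. HEK293T is 1 transformed line, and nothing in the labels says whether replicates were separate cultures, so p-values measure the spread between these libraries, which may be technical.

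A ribosome that is decoding an mRNA shields a short stretch of it from nuclease. The number of such footprints on a transcript, relative to the amount of its mRNA, is the usual measure of how heavily the mRNA is loaded with ribosomes and is called translational efficiency (TE). Loading is set largely by how often ribosomes initiate at the start codon, which depends on the 5' leader of the mRNA, on upstream reading frames and on proteins that bind it, while slow elongation can also raise the footprint count. TE here is log2 RPF minus log2 mRNA level, both in CPM (counts scaled to a common library size), and transcript length drops out of the ratio only where both assays were counted over the same region, which the labels do not state. Assay and library preparation differ together, so a difference in TE and a difference in how a transcript passed through the 2 preparations cannot be told apart.

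The 4 files listed 17607 transcripts, and 7991 of them (45.4%) had 20 or more summed counts in each assay. These are the transcripts described. Another 1434 reached 20 counts in RPF only, 902 in mRNA only and 7280 in neither. The files name transcripts only by Ensembl identifier, and 0 of these 7991 could be found in the 4 tables of gene names and sequences used here. Gene classes, gene sequences and the marker check of the cell line were therefore not analysed here, and only the 2 transcripts at each end of the TE range are given by identifier. At the edge of the count limit the TE values were centred alike: the median was 0.09 for the 859 transcripts whose smaller sum was 20 to 24 and −0.02 for the 1029 whose smaller sum was 15 to 19. The 10th percentiles were −1.43 and −1.67 and the 90th 1.31 and 1.26. The smaller sum can be that of either assay, so these medians cannot show whether the limit shifts TE.

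RPF libraries held 1165740 and 811913 counts and mRNA libraries 762076 and 719846, for replicates 1 and 2. The described transcripts took between 92.8% and 95.5% of a library's counts. Over them, log2 levels correlated at r = 0.91 between the RPF replicates and at r = 0.83 between the mRNA replicates, against 0.66 to 0.69 for the 4 pairs of an RPF with an mRNA library. The replicates differed by more than 2-fold for 11.4% of transcripts in RPF and for 19.1% in mRNA. The SD of the log2 difference between replicates was 0.65 in RPF and 0.85 in mRNA, where counting alone would give about 0.36 and 0.42. The mRNA level was thus the less repeatable side of the ratio. Transcripts are not independent replicates, and these correlations are given without a p-value.

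Footprint and mRNA levels went together over a wide range, with a broad scatter around equality. Between the means of each assay, r was 0.73 and Spearman's rho 0.67 across the 7991 transcripts, so mRNA level accounted for 52.6% of the variance of log2 RPF level. TE had an SD of 1.08 over transcripts on the log2 scale. The middle 80% of transcripts ran from −1.38 to 1.196, and the median was −0.02. That range is 2.60-fold below to 2.29-fold above equal CPM. The central 50% lay between −0.70 and 0.61. CPM was scaled to the bulk of transcripts, so equal CPM is not an equal share of reads. With library totals alone the 10th and 90th percentiles were −1.20 and 1.36. Most transcripts therefore had a footprint level within a few-fold of their mRNA level.

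**Figure D1:**
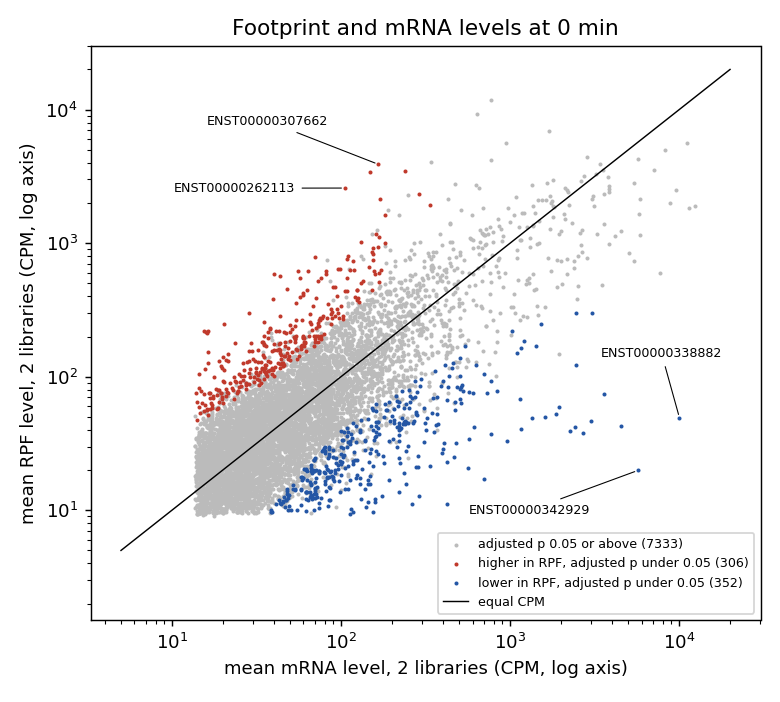
Mean RPF level against mean mRNA level at 0 min (both in CPM on log axes), with 1 point per transcript; red and blue points had an adjusted p-value under 0.05 in edgeR's quasi-likelihood test, and the line marks equal CPM. The 306 red and 352 blue points form the outer edges of a cloud of 7991 transcripts, and the blue points reach farther from the line than the red ones.

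On the mean of 2 libraries per assay, the low end of the range was longer than the high end. There, 328 transcripts (4.10%) had a TE under −2 and 157 (1.96%) a TE over 2. Past 3 on the log2 scale the numbers were 79 at the low end and 28 at the high end, and past 4 they were 25 and 3. The extremes were −8.17, a footprint level 287-fold below the mRNA level in CPM, and 4.61, a level 24.5-fold above it.

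How long each end was depended on the mRNA library. With mRNA replicate 1, TE over 2 was the more frequent: 4.79% of transcripts were above 2 and 3.88% under −2 with RPF replicate 1, and 3.82% and 3.17% with RPF replicate 2. With mRNA replicate 2 the order turned, to 2.18% above 2 and 6.97% under −2 with RPF replicate 1, and 1.31% and 6.96% with RPF replicate 2. Past 4, mRNA replicate 1 gave 51 transcripts above and 38 below with RPF replicate 1, and 36 and 27 with RPF replicate 2. For mRNA replicate 2 these numbers were 1 and 29, and 1 and 39. The RPF library made less difference to the balance of the 2 ends than the mRNA library did. Values for single libraries used log2(CPM + 0.5).

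**Figure D2:**
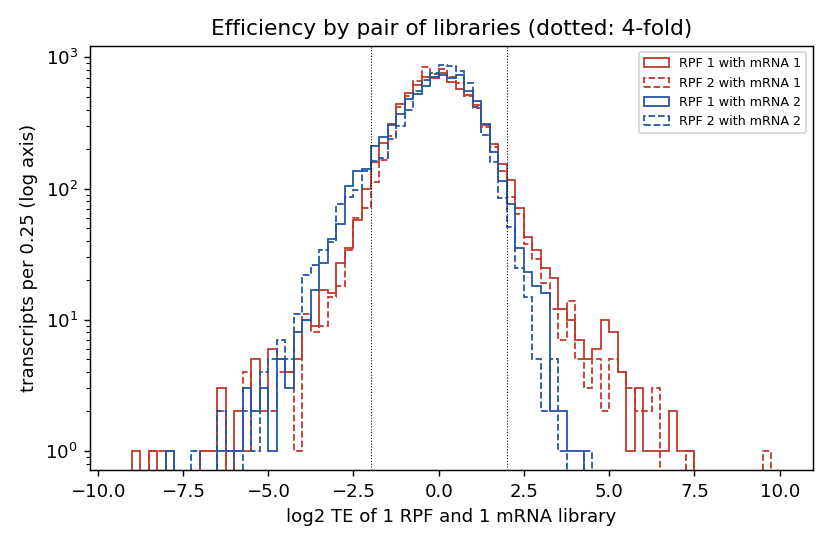
Number of transcripts (log axis) by log2 TE for each of the 4 pairs of an RPF and an mRNA library; red lines use mRNA replicate 1, blue lines mRNA replicate 2, and dotted lines mark −2 and 2. The red lines carry a long right arm, with 51 and 36 transcripts over 4, where the blue lines hold 1 transcript each.

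The part of the right arm that both RPF libraries shared consisted of transcripts lower in mRNA replicate 1 than in mRNA replicate 2. With mRNA replicate 1, 33 transcripts had a TE over 4 with both RPF libraries. In RPF their median was 772 CPM for replicate 1 and 781 CPM for replicate 2, so the RPF libraries did not part on them at the median. In mRNA their median was 21.04 CPM for replicate 1 but 180 CPM for replicate 2. All 33 were lower in mRNA replicate 1 than in replicate 2, by at least 3.01-fold and by 6.39-fold at the median. None of the 33 had a TE over 4 with mRNA replicate 2 in both RPF libraries, and the median TE of the replicate 2 libraries was 2.38. These transcripts were picked with mRNA replicate 1, so the gap is a description of that choice and carries no test.

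At the low end, TE under −4 was found with either mRNA library, although the mRNA replicates parted there too. With both RPF libraries, 25 transcripts were under −4 with mRNA replicate 1 and 20 with mRNA replicate 2. The median levels of the 25 were 37.4 and 39.1 CPM in RPF, against 1378 and 927 CPM in mRNA, and mRNA replicate 1 was the lower in 3 of the 25. Those of the 20 were 39.6 and 43.5 CPM in RPF, against 2333 and 1653 CPM in mRNA, and mRNA replicate 1 was the lower in 9 of the 20. A TE under −4 with 20 or more summed footprints requires a high mRNA level, so the mRNA abundance of these transcripts follows from the choice. Their footprint levels were close to the median of all transcripts, 41.7 CPM in RPF replicate 1 and 43.5 CPM in RPF replicate 2.

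Whether a transcript's RPF level differed from its mRNA level was tested with edgeR's quasi-likelihood test over the 7991 transcripts. The test used TMM scaling (a trimmed mean of M-values), so that higher and lower are relative to the bulk of transcripts. At a Benjamini-Hochberg adjusted p-value under 0.05, 658 transcripts (8.23%) passed, 306 of them higher in RPF (3.83%) and 352 lower (4.40%). In each of the 658 the RPF and mRNA values did not overlap, which was also so for 4849 of all 7991 (31.5% with both RPF values above both mRNA values and 29.2% with both below). The higher transcripts had a median log2 TE of 1.90 and the lower ones of −2.27, and no change under 1.31 in size was called. Replicates varied with a coefficient of variation of 31.5% (common dispersion 0.099), and log2 TE had a median SE of 0.44.

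All calls were lost when 1 RPF library was left out, whichever it was, and their number and balance changed when 1 mRNA library was left out. Without RPF replicate 1 edgeR called 0 of 6402 transcripts, with 1213 at an unadjusted p-value under 0.05, and without RPF replicate 2 it called 0 of 6739, with 1515. Those fits take the spread from the 2 mRNA libraries alone, and their smallest adjusted p-values were 0.113 and 0.0605, so no transcript could keep its call in them. Without mRNA replicate 1 there were 286 higher and 666 lower of 5504 tested, and without mRNA replicate 2 there were 536 higher and 393 lower of 5688. The majority direction thus turned with the mRNA library, as the balance of the ends did. It also turned with scaling: library totals alone gave 766 higher and 534 lower, with the median TE of all transcripts moved by 0.15, and TMM factors computed within each assay gave 613 higher and 356 lower, with the median moved by 0.16. DESeq2 called 884 (368 higher, 516 lower) but gave no adjusted p-value to 2479 of the 7991 transcripts. With limma voom 536 were called (244 higher, 292 lower).

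In reads, the called transcripts made up very different parts of the assays. The 306 higher ones took 9.86% and 9.34% of RPF counts but 1.39% and 1.90% of mRNA counts, in replicates 1 and 2. The 352 lower ones took 1.36% and 1.54% of RPF counts but 13.003% and 9.84% of mRNA counts. The median higher transcript stood at 174 and 149 CPM in RPF and at 34.9 and 52.7 CPM in mRNA. The median lower transcript stood at 26.1 and 27.2 CPM in RPF and at 118 and 136 CPM in mRNA. These sets were chosen on the same values, and the shares describe their size. Among the 306 higher transcripts, mRNA replicate 1 was above mRNA replicate 2 in 60 (19.6%), and RPF replicate 1 was above RPF replicate 2 in 203 (66.3%). Among the 352 lower ones these numbers were 160 (45.5%) and 173 (49.1%), and among all 7991 the shares were 48.1% and 50.0%. The part of this replicate difference in the higher calls was not tested.

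Calls came mainly from transcripts with a high mean level over both assays. With transcripts split into 5 quintiles by mean level, in quintile 1 (the lowest, median 19.4 CPM), 0 were called higher and 3 lower of 1599. In quintile 5 (the highest, median 190 CPM), 153 were called higher (9.57%) and 140 lower (8.76%) of 1598. The mean level takes in both assays, and the count limit holds in each of them. A transcript with a low mean level therefore had little room for a large TE, and no small change was called. These quintiles cannot show how far abundance itself governed the calls, and the part of the limit was not tested. Size counted as well: all 25 transcripts with a fitted log2 TE under −4 and all 3 over 4 were called, as were 227 of 322 under −2 and 129 of 159 over 2, but 352 of 1353 under −1 and 306 of 1112 over 1.

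Past the count limit, TE went with footprint level more than with mRNA level. To keep the noise of a library out of both axes, transcripts were ranked in 1 library of an assay and TE was taken with the other. Noise in the ranking library flattens a trend, and replicates correlated at 0.83 in mRNA against 0.91 in RPF. The part of this noise in the difference between the 2 assays was not tested. Ranked by RPF replicate 1, the median TE climbed from −0.44 in quintile 1 (median level 13.9 CPM) to 0.54 in quintile 5 (203 CPM), and ranked by RPF replicate 2 from −0.59 to 0.63. Ranked by mRNA replicate 1, the median TE was 0.01 in quintile 1 and −0.13 in quintile 5, and ranked by mRNA replicate 2 it was 0.03 and −0.31. The lower edge of TE lay farther down in the most abundant mRNAs. By mRNA replicate 1, the 10th percentile of TE was −2.41 in quintile 5 against −1.32 in quintile 1. By mRNA replicate 2 it was −1.78 against −0.99. The count limit in RPF keeps out low TE where the mRNA level is low, so these edges cannot show a trait of abundant mRNAs. The limit in mRNA likewise keeps out high TE where the footprint level is low, and its part in the climb was not tested. The SD of log2 level over transcripts was 1.58 and 1.46 in the RPF libraries and 1.47 and 1.45 in the mRNA libraries, so the assays overlapped in spread. These are descriptions across transcripts that share library and depth, and each level is itself a part of TE.

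**Figure D3:**
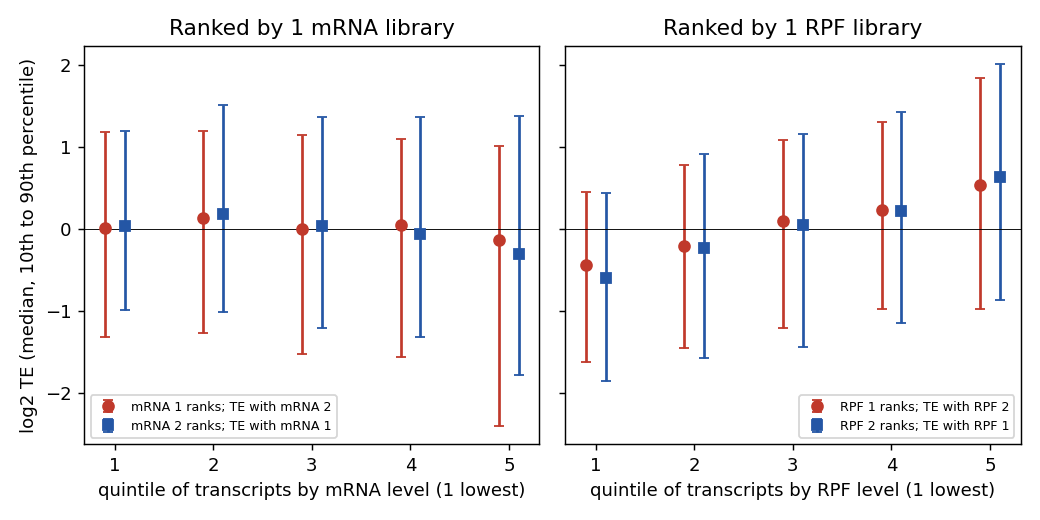
Median log2 TE (points) with the 10th to 90th percentile (bars) in 5 quintiles of the 7991 transcripts, ranked by 1 mRNA library (left) or 1 RPF library (right), with TE taken from the other library of that assay. The medians stay near 0 on the left, from −0.31 to 0.18, and climb with rank on the right, from −0.59 to 0.63.

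TE measured in separate libraries agreed in part. Across the 7991 transcripts, TE from the replicate 1 libraries and TE from the replicate 2 libraries correlated at r = 0.56, and the other pairing of the same 4 libraries gave 0.63. Of the 100 transcripts with the highest TE in the replicate 1 libraries, 99 had a TE above 0 in the replicate 2 libraries. Their median was 4.09 where they were chosen and 1.63 in the other libraries. Of the 100 lowest, 94 had a TE under 0 in the replicate 2 libraries, with medians of −3.71 and −2.51. The direction of nearly all of them was the same in libraries that had not ranked them, with a smaller median at both ends. Over all 7991 the median TE was −0.02 on the means of 2 libraries. The count limit summed both replicates of an assay, so all 4 libraries took part in which transcripts were kept. The part of this limit in the sizes was not tested.

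The reverse choice gave the same directions but other sizes. Of the 100 highest in the replicate 2 libraries, 96 were above 0 in the replicate 1 libraries, with medians of 2.27 and 2.56. Of the 100 lowest, 93 were under 0, with medians of −3.83 and −1.54. Here the median of the high end was kept and that of the low end was smaller, so which end held its size depended on the libraries used to choose. As for the sets themselves, 36 of the 100 highest and 29 of the 100 lowest were shared between the 2 choices. Each set is 100 of 7991 transcripts, while a direction has 2 outcomes, so these counts and those of direction are not on one scale.

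**Figure D4:**
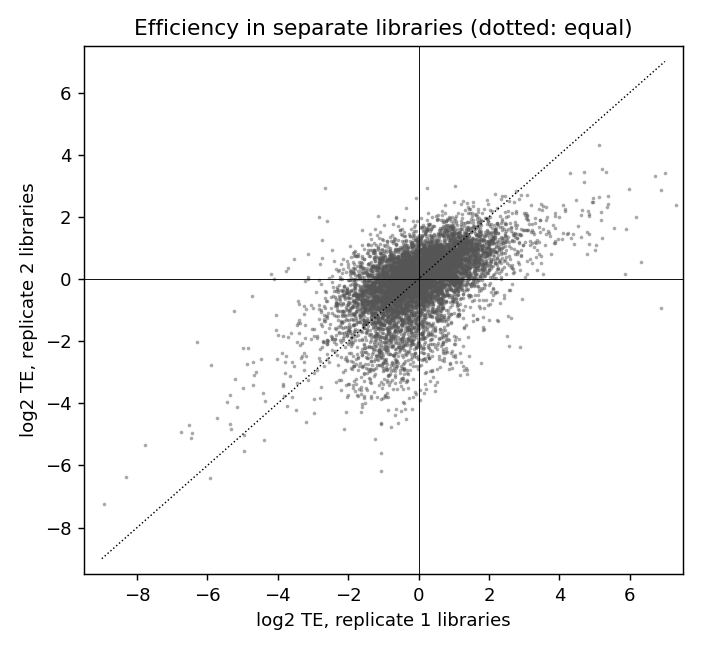
Log2 TE of each transcript in the replicate 2 libraries against the replicate 1 libraries, with a dotted line of equality. The points form a cloud with r = 0.56, and those beyond 4 on the horizontal axis lie below the line of equality.

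Of the 7991 transcripts past the count limit, ENST00000342929 had the lowest TE. Its mRNA level was 7562 CPM (5750 counts) in replicate 1 and 3874 CPM (2500 counts) in replicate 2, ranks 7 and 21 of 7991. Its RPF level was 14.8 CPM (17 counts) and 25.0 CPM (23 counts), ranks 7010 and 5815. The transcript was thus among the most abundant mRNAs and among the less abundant footprints in both libraries of each assay, with no overlap. The fitted log2 TE was −8.17 (SE 1.07), and edgeR's adjusted p-value was 0.0133. It was −7.47 without mRNA replicate 1 and −8.39 without mRNA replicate 2. Without RPF replicate 1 it was −8.00, in the fit that called no transcript, and without RPF replicate 2 the transcript fell below the count limit.

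ENST00000338882 had the highest level of all described transcripts in mRNA replicate 1, at 16095 CPM (12239 counts), and stood at 4000 CPM (2581 counts) in mRNA replicate 2. Its RPF level was 50.4 CPM (58 counts) and 47.8 CPM (44 counts). The RPF replicates were nearly equal, and the mRNA replicates differed 4.02-fold, yet both mRNA values lay far above both RPF values. The log2 TE was −7.67 (SE 1.32), and edgeR's adjusted p-value was 0.0207. It was −6.20 without mRNA replicate 1 and −8.17 without mRNA replicate 2. Without RPF replicate 1 it was −7.88 and without RPF replicate 2 −7.80, in fits that called no transcript.

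At the other end, ENST00000262113 had RPF levels of 3386 CPM (3893 counts) and 1788 CPM (1645 counts), ranks 24 and 38 of 7991. Its mRNA level was 31.6 CPM (24 counts) in replicate 1 and 180 CPM (116 counts) in replicate 2, ranks 4874 and 866. Footprints exceeded mRNA in every pairing of libraries, but the mRNA replicates differed 5.70-fold. The log2 TE was 4.62 (SE 0.96), and edgeR's adjusted p-value was 0.0321. Without mRNA replicate 1 it was 3.98, and without mRNA replicate 2 it was 6.53. Without RPF replicate 1 it was 3.92 and without RPF replicate 2 4.85, where no transcript was called.

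ENST00000307662 was the 10th and the 12th most abundant footprint species of the RPF libraries, at 4624 CPM (5317 counts) and 3162 CPM (2910 counts). Its mRNA level was 35.5 CPM (27 counts) in replicate 1 and 298 CPM (192 counts) in replicate 2. The footprint values lay above both mRNA values, which themselves stood 8.38-fold apart. The log2 TE was 4.55 (SE 1.08), and edgeR's adjusted p-value was 0.041. It ranged from 3.85 without mRNA replicate 1 to 6.95 without mRNA replicate 2. It was 4.08 without RPF replicate 1 and 4.64 without RPF replicate 2, again with no transcript called.

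**Figure D5:**
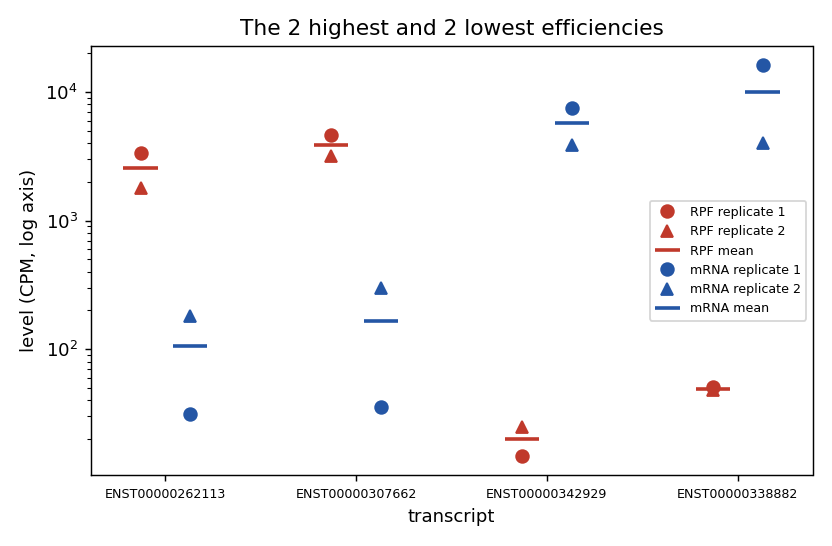
Level in each library (CPM, log axis) of the 2 transcripts with the highest and the 2 with the lowest log2 TE among those called; red marks RPF, blue mRNA, circles replicate 1, triangles replicate 2 and bars the means. RPF and mRNA values do not overlap in any of the 4, and in each the mRNA replicates lie farther apart in fold than the RPF replicates.

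The next transcripts at each end followed the same split. Among the 15 called transcripts with the highest log2 TE (3.41 to 4.62), RPF levels ran from 112 to 4635 CPM and mRNA levels from 1.32 to 361 CPM. In all 15 mRNA replicate 1 was the lower of the mRNA libraries. Among the 15 with the lowest log2 TE (−8.17 to −4.84), RPF levels ran from 10.4 to 100.0 CPM and mRNA levels from 279 to 16095 CPM. In 12 of these 15 mRNA replicate 1 was the higher of the mRNA libraries. The part of mRNA replicate 1 in the rank of these transcripts was not tested.

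Transcripts that missed the count limit in 1 assay held further extremes that have no TE here. In 44 transcripts 100 or more mRNA counts stood against fewer than 20 footprints, with medians of 204 and 10 counts, and the most abundant of them had 7687 mRNA counts. In 22 transcripts 100 or more footprints stood against fewer than 20 mRNA counts, with medians of 116 and 16 counts and a highest sum of 174 footprints. The excluded low end was thus larger than the excluded high end, in number and in reach. For 9 transcripts with 20 or more mRNA counts no footprint was counted. The most abundant had 272 and 28 mRNA counts, a sum of 300, or 202 CPM of the 2 library totals together, and its 0 footprints allow a level of up to 1.52 CPM (3 counts over the 2 RPF libraries). For 2 transcripts with 63 and 35 footprints no mRNA was counted, which allows up to 2.02 CPM. Such limits cover counting error only, since PCR copies are not independent molecules.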

How the data were processed

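Each library's deposited table holds raw whole-number counts by Ensembl transcript, to which the authors had applied no normalization, as the values show. The submitters' processing notes name cutadapt 2.8, Bowtie 1.2.3 and STAR 2.7.10a. The counting program, counted region, genome build, annotation, use of strand and handling of duplicate or multiply mapping reads are not given in the sources used here, so counts of near-identical or overlapping transcripts are uncertain. The protocol text describes the mRNA preparation no further than polyadenylated RNA.

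Only the 4 libraries of 0 min entered the fits. Transcripts absent from a library's table were set to 0 counts. Transcripts with 20 or more summed counts in each assay were kept, CPM used each library's full total times its TMM factor over the 4 libraries, and assay was tested in R 4.3.3 with edgeR 4.0.16 (estimateDisp, glmQLFit, glmQLFTest). Benjamini-Hochberg adjustment ran over all transcripts tested, with a threshold of 0.05. The SE is the size of the log2 TE divided by the square root of F. The test was checked on simulated data. Replicates of an assay differed by more than sampling noise (chi-square per degree of freedom 6.74 in RPF and 10.5 in mRNA), so none was counted as a duplicate.

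Identifiers were to be named where adjusted p was under 0.05, RPF and mRNA values did not overlap and mean CPM was at least 10; without gene names, the rule gives the 2 highest and 2 lowest by log2 TE. Members, lists and tests were chosen with earlier results of these data known. The planned gene lists and cell markers were not used, since no identifier matched. Alternatives were other scalings and filters, DESeq2 1.42.0, limma 3.58.1 voom, robust empirical Bayes, a block for replicate number, and fits without each library in turn.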

Additional observations from a re-analysis of the deposited data

How the results depend on the processing

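The number of called transcripts (658; 306 higher, 352 lower) changed by over 1.5 times in either total or direction with several choices; the cause was not tested. Library totals alone gave 1300 (766 higher, 534 lower), and TMM within each assay gave 613 higher. The filterByExpr filter gave 1477 of 9473 tested (609 higher, 868 lower), a sum of 1 in each assay 1928 of 15673 (957 higher, 971 lower), and a sum of 100 in each assay 25 of 2019 (5 higher, 20 lower). RLE factors, 10 counts in every library, DESeq2, robust empirical Bayes and voom gave 536 to 885 calls.

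With the replicate number as a block there were 903 calls (397 higher, 506 lower), 637 of them among the 658. Replicate differences of the 2 assays correlated at −0.11, so a crossed replicate block was added after seeing the data; it gave 1485 calls (706 higher, 779 lower). With 2 pairs and no label that ties them, whether the numbers pair the samples is not known. Leaving out 1 library gave 0 to 952 calls, 0 to 536 higher and 0 to 666 lower. The lone library was then assumed to vary like the other assay's.

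The SD of TE was 1.14 at a sum of 100 and 1.35 at a sum of 1, and 1.04 to 1.21 with 1 library left out. The 10th percentile was −1.20 with library totals, −1.46 at a sum of 100, −1.96 at a sum of 1 and −1.81 to −1.23 with 1 library left out. The 90th was 1.36 with library totals, 1.37 at a sum of 1 and 1.09 to 1.34 with 1 library left out. The correlation of TE between replicate numbers was 0.35 at a sum of 1 and 0.56 to 0.63 otherwise. The 4 transcripts given by identifier kept their sign in every alternative that tested them. At a sum of 100 in each assay, edgeR's adjusted p-value was 0.0596 for ENST00000262113 and 0.0625 for ENST00000307662, so neither was called. ENST00000338882 kept its call there, at 0.0461, and ENST00000342929 was not tested. Medians of gene lists were not run.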
